A study of Mus musculus with 9 samples.

Results

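Leydig cells are the steroid-making cells that lie between the seminiferous tubules of the testis, and germ cells lie inside the tubules. The genes described here are 10 whose RNA is abundant in mouse Leydig cells: Cyp11a1, Cyp17a1, Hsd3b1, Hsd3b6, Hsd17b3, Star, Lhcgr, Insl3, Fabp3 and Ptgds. They were chosen by gene symbol, with earlier results of these data known. All 10 were found among the 50493 features of the deposited tables. RNA was measured in 3 kinds of germ cell taken from testes of wild-type mice: pachytene spermatocytes (PAC), which are in meiotic prophase, haploid round spermatids (RS) and elongating spermatids (ES). Each cell type had 3 libraries, 9 in all, named as biological replicates in the design text. The sources used here give no treatment, age or strain, nor how the cells were purified or from how many mice. The p-values therefore set differences between cell types against the spread between these libraries, which may not be that between mice. Libraries were stranded and came from ribosome-depleted total RNA primed at random.

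In a Leydig cell, luteinising hormone acts through its receptor and cyclic AMP to raise the delivery of cholesterol to the inner mitochondrial membrane. There the side chain is cut off to give pregnenolone, and a short series of enzymes turns pregnenolone into testosterone. Testosterone and the peptide INSL3 leave the cell, and the androgen acts on Sertoli cells and other somatic cells that sustain the germ cells.

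Total counts per library ran from 22910156 to 33801617. Levels are given as CPM, a count scaled to a fixed library total, after TMM scaling, the factors of which lay between 0.9234 and 1.099 except in ES replicate 1, at 0.7584. Log counts of libraries of the same cell type correlated at 0.9455 or more, and no library stood outside its cell type for the 10 genes. Marker genes of PAC and ES were, as sums, highest in the cell types so labelled. Summed, 8 elongating spermatid genes were at 2161 to 2978 CPM in PAC, 15436 to 17475 in RS and 42343 to 71781 in ES. The sum of 8 pachytene genes was 2621 to 2858 CPM in PAC and 1093 to 1222 in RS and ES together. For 8 round spermatid genes it was 664 to 840 CPM in PAC, 2412 to 2602 in RS and 3153 to 3869 in ES. That sum was thus not highest in RS. Tssk6 made up most of it in ES, at 2701 ± 376 CPM. From RS to ES 6 of these 8 genes were called lower and 1, Tssk6, higher, beside 22.1% and 24.5% of all features. The highest value for the elongating spermatid genes was that of ES replicate 1.

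The 10 genes were highest in PAC, nearly absent in RS and intermediate in ES. Summed over the 10 genes, PAC replicates 1, 2 and 3 held 5022, 3320 and 4514 counts, RS replicates held 84, 83 and 89, and ES replicates held 530, 578 and 446. As levels, these were 156, 121 and 163 CPM in PAC, 2.53, 2.27 and 2.59 in RS, while the ES libraries were at 28.6, 25.7 and 21.1. The 3 cell types did not overlap, and the RS libraries were close to one another. The RS mean of 2.46 ± 0.17 CPM (SD, n = 3) was 1.68% of the PAC mean of 147 ± 22.2 CPM, and the ES mean of 25.1 ± 3.8 CPM was 17.1% of it. By library, this was 1.72%, 1.55% and 1.77% in RS and 19.5%, 17.5% and 14.4% in ES. Even in PAC, the 10 genes together took 0.0132% to 0.0172% of a library's counts. Before TMM scaling, their share was 0.00217%, 0.00237% and 0.00195% for ES replicates 1, 2 and 3. Replicate 2 was then the highest, so the order of ES replicates 1 and 2 depended on the scaling. In a mixed sample, fewer cells of a type and less RNA per cell cannot be told apart.

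**Figure D1:**
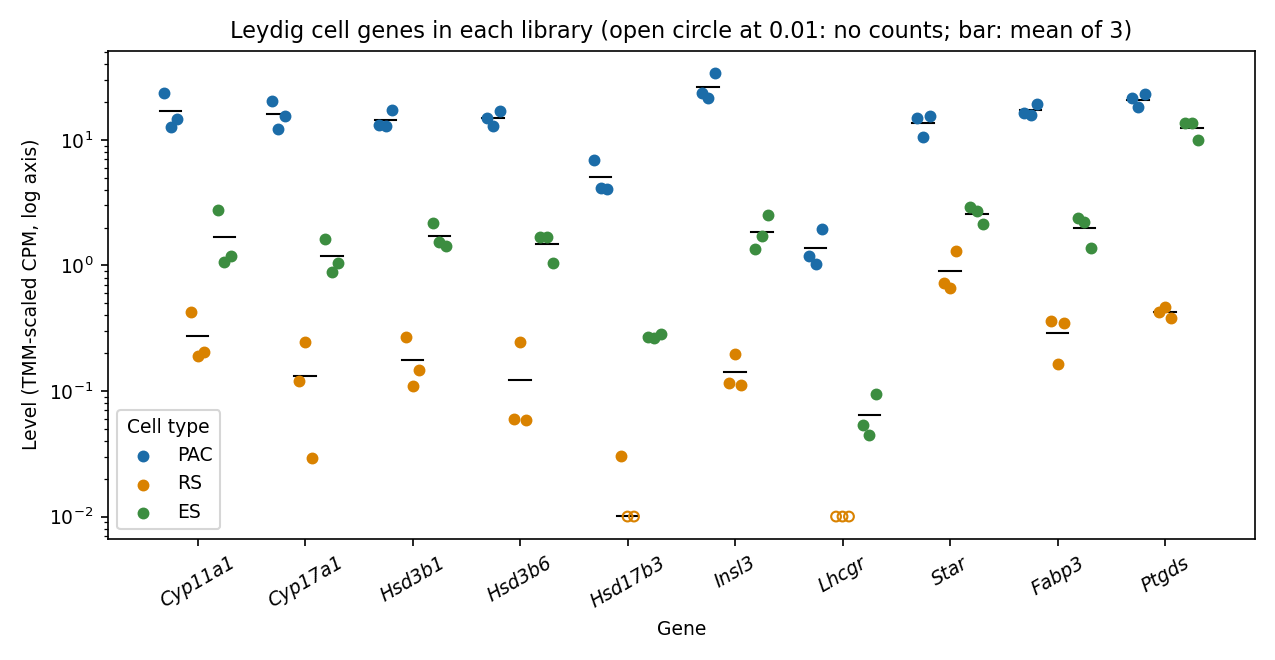
Level of each of the 10 genes in every library (TMM-scaled CPM, log axis), coloured by cell type, with a bar at the mean of 3 libraries; open circles at 0.01 are libraries with no counts. For every gene the PAC libraries lie above the ES libraries and the ES libraries above the RS libraries, and for Ptgds the gap between PAC and ES is the smallest.

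Differences were tested with edgeR's quasi-likelihood test, adjusted over all 26030 features with enough counts, and called at an adjusted p below 0.05. All 10 genes passed the filter on low counts and all 10 fell from PAC to RS. In that comparison 72.5% of all features were called, 34.2% as lower, so a call by itself was common, while the size was not: the median log2 fold change of the 10 genes was -6.6, or -6.13 with Lhcgr set at its bound, against 0.11 over all features. From RS to ES, where 46.6% of features were called and 24.5% were higher, all 10 were called higher, 8 of them on more than 1 count in RS. The other two were Lhcgr, with 0 counts in RS and 4 in ES, and Hsd17b3, with 1 and 17; both passed the filter through PAC, and neither passed it when RS and ES were fitted alone. Their median there was 3.38, or 3.26 over the 9 genes without Lhcgr, against 0.05 over all features. From PAC to ES all 10 fell, beside 64.4% of features called and 33.7% called lower, with a median of -3.35 against -0.09. Over the 14955 tested features that are NCBI genes, as these 10 are, the medians were -0.46, 0.18 and -0.38 in the same order. In the direction of the 10 genes, 6996, 4737 and 6362 of them were called. The 3 comparisons share libraries, so they are not independent of one another. In each comparison the 2 groups of libraries did not overlap for any of the 10 genes. The share of all features without such overlap was not counted, so how common this was is not known.

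**Figure D2:**
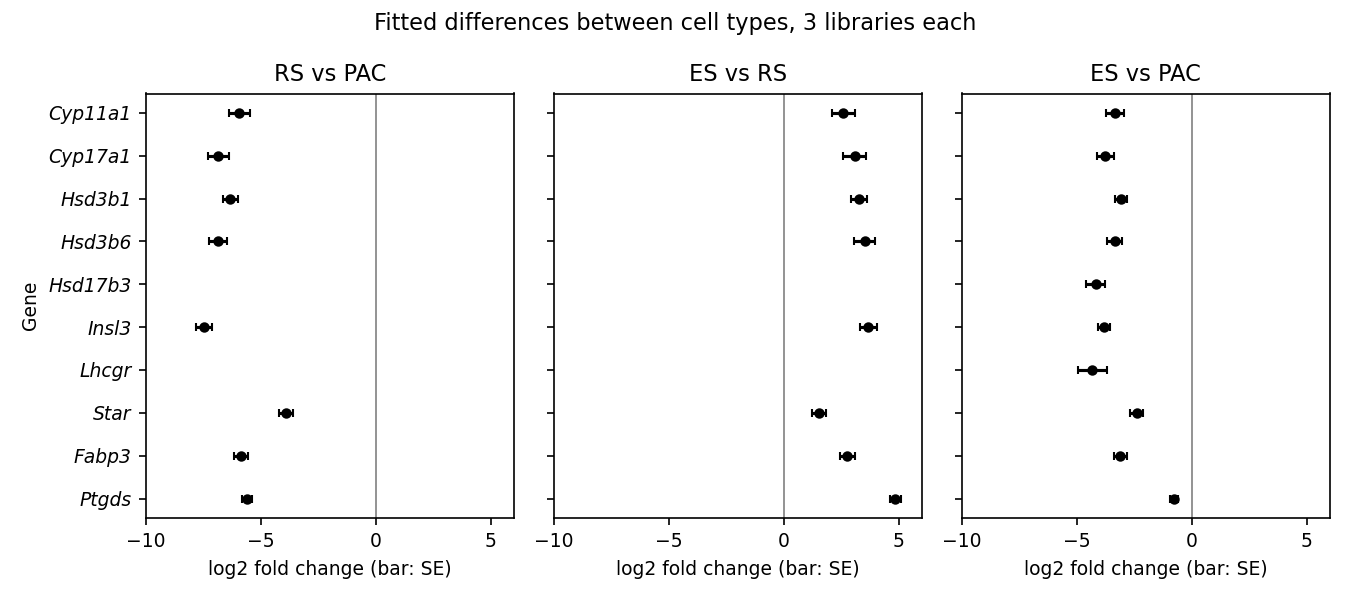
Log2 fold change of each gene in each comparison with its standard error, from edgeR with 3 libraries per cell type. Lhcgr and Hsd17b3 are left out of the comparisons with RS, where they had 0 and 1 count in 3 libraries; Star has the smallest fall from PAC to RS, at -3.92, and Ptgds the smallest from PAC to ES, at -0.76.

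Star encodes the protein that carries cholesterol to the inner mitochondrial membrane, the step that luteinising hormone controls acutely. It had 481, 287 and 432 counts in the PAC libraries, 24, 24 and 45 in RS and 54, 61 and 45 in ES. Its lowest ES count equals its highest RS count, but the RS libraries were deeper, and as levels the highest RS library was at 1.31 CPM and the lowest ES library at 2.13. Star fell 15.2-fold from PAC to RS (log2 fold change -3.92 ± 0.30 SE, edgeR adjusted p = 9.72e-07), which was the smallest fall of the 10 genes. It rose by 1.52 ± 0.30 on the log2 scale from RS to ES (edgeR adjusted p = 0.00159), also the smallest rise among the genes for which a size can be given. In RS it stood at 6.56% of its PAC level, where the other genes with more than 1 count stood at 0.538% to 2.02%.

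Cyp11a1 encodes the mitochondrial P450 that cuts the cholesterol side chain. The PAC libraries had 753, 344 and 405 counts of it, the RS libraries 14, 7 and 7, and the ES libraries 51, 24 and 25. Replicate 1 was the highest in each cell type. Its level went from 16.9 ± 5.77 CPM in PAC to 0.272 ± 0.13 in RS and 1.67 ± 0.944 in ES (SD, n = 3). The fall to RS was 61.5-fold (log2 fold change -5.94 ± 0.47 SE, edgeR adjusted p = 1.58e-06), and the rise from RS to ES was 6.0-fold (edgeR adjusted p = 0.00133).

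Cyp17a1 encodes the P450 with hydroxylase and lyase activity that turns progestins into androgens. Its counts were 659, 331 and 433 in PAC, 4, 9 and 1 in RS and 30, 20 and 22 in ES. With 14 counts over the 3 RS libraries, the RS level was 0.132 ± 0.109 CPM against 16.1 ± 4.22 in PAC and 1.18 ± 0.387 in ES. The log2 fold change was -6.86 ± 0.45 SE from PAC to RS (edgeR adjusted p = 4e-07) and 3.09 ± 0.50 from RS to ES (edgeR adjusted p = 0.000435). RS replicate 2, with 9 of the 14 counts, set much of these sizes: without it they were -7.66 and 3.88, both still called.

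Hsd3b1 and Hsd3b6 encode 3-beta-hydroxysteroid dehydrogenases, which turn pregnenolone into progesterone and its relatives; Hsd3b6 is the form gained by adult mouse Leydig cells. They are neighbours on chromosome 3, Hsd3b1 at chr3:98842356-98859794 and Hsd3b6 at chr3:98805504-98814443 (GRCm38.p6, both on the minus strand). Their coding sequences, each 1122 bases, were identical at 1010 positions (90.0%), with 112 differences and a longest shared run of 72 bases. The stretch from coding base 42 to 161 is shown for both because it tells them apart best, with 25 differing bases in capitals (5′ to 3′, from GENCODE M21 transcripts):
Hsd3b1: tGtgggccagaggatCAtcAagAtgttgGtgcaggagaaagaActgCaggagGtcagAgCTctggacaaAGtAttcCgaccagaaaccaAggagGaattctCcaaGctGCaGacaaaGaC
Hsd3b6: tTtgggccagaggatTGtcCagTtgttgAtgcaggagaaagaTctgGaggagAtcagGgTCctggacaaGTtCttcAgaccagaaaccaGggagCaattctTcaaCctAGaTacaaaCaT
Of the 50-base windows of the Hsd3b6 transcript 2.17% occurred unchanged in that of Hsd3b1, and of the 100-base windows none of 1703 did. The sources used here give neither the read length nor the handling of reads that fit both, so the split of counts between this pair is less certain than their sum.

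The PAC libraries had 420, 352 and 476 counts of Hsd3b1, those of RS had 9, 4 and 5, and those of ES had 40, 35 and 30. For Hsd3b6 they had 479, 355 and 475, then 2, 9 and 2, then 31, 38 and 22. In PAC the pair was near balance, with 0.877, 0.992 and 1.0 counts of Hsd3b1 for each of Hsd3b6, and the ES libraries, at 1.29, 0.921 and 1.36, were in the same range or a little above. From PAC to RS the log2 fold change was -6.33 ± 0.33 SE for Hsd3b1 (edgeR adjusted p = 8.46e-08) and -6.87 ± 0.41 for Hsd3b6 (edgeR adjusted p = 1.88e-07), and from RS to ES it was 3.26 ± 0.35 (adjusted p = 2.62e-05) and 3.51 ± 0.44 (adjusted p = 7.17e-05). As for Cyp17a1, RS replicate 2 held most RS counts of Hsd3b6, and without it the values for Hsd3b6 were -7.86 and 4.51.

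Hsd17b3 encodes the dehydrogenase that makes testosterone from androstenedione, the last step in the testis. It had 224, 114 and 112 counts in PAC, 1, 0 and 0 in RS and 5, 6 and 6 in ES. Pooled and scaled, RS was at 0.186% of PAC (exact 95% interval 0.00471% to 1.04%, counting error only), and ES at 5.3% (3.06% to 8.59%). The ES libraries were even, at 0.27, 0.266 and 0.284 CPM, the lowest levels of the enzymes in ES. It was called lower in RS (edgeR adjusted p = 4.54e-07) and higher in ES than in RS (edgeR adjusted p = 0.000922), but with 1 count in RS neither fold is a reliable size. Without RS replicate 1, the library with that count, the fitted log2 values moved to -10.12 and 5.93.

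Lhcgr encodes the receptor for luteinising hormone and was the scarcest of the 10 genes. The PAC libraries had 38, 28 and 54 counts, the RS libraries none, and the ES libraries 1, 1 and 2. Against a floor of 3 counts in each library, 0.0866 CPM on average in RS, it was at least 16-fold lower in RS than in PAC, where it stood at 1.38 ± 0.493 CPM (edgeR adjusted p = 2.18e-05). The ES libraries were themselves under the floor, so no fold is given between RS and ES. The call there (edgeR adjusted p = 0.0238) was lost without RS replicate 2 (adjusted p = 0.0506) and without ES replicate 3 (adjusted p = 0.0638).

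Insl3 encodes the insulin-like peptide by which Leydig cells act on testis descent in the fetus, and which they go on secreting in the adult. It had 753, 584.6 and 945.8 estimated counts in PAC, 3.85, 7.21 and 3.82 in RS and 24.9, 38.73 and 52.93 in ES. PAC replicate 3 and ES replicate 3 were the highest of their cell types, whereas for Cyp11a1 it was replicate 1. The log2 fold change was -7.47 ± 0.35 SE from PAC to RS (edgeR adjusted p = 3.97e-08), the largest fall among genes with more than 1 count in RS, and 3.66 ± 0.37 from RS to ES (edgeR adjusted p = 2e-05). All 1326 bases of Insl3 (chr8:71689252-71690577, plus strand) lie inside Jak3, which encodes a cytokine receptor kinase and is read from the same strand, and the counts of Insl3 were whole in 1 of the 9 libraries only, PAC replicate 1. Jak3 itself had 114.2 to 135 counts in PAC, 149.2 to 191.2 in RS and 77.1 to 90.07 in ES, an order of cell types unlike that of Insl3. How reads were divided between this pair was not tested.

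Fabp3 encodes a fatty acid binding protein first known from heart muscle, which Leydig cells also hold. Its counts were 526, 430 and 538 in PAC, 12, 6 and 12 in RS and 44, 50 and 29 in ES. It was among the steadiest in PAC, at 17.2 ± 1.96 CPM, and stood at 0.292 ± 0.111 CPM in RS and 1.99 ± 0.541 in ES. The log2 fold change was -5.87 ± 0.32 SE from PAC to RS (edgeR adjusted p = 1.04e-07) and 2.76 ± 0.33 from RS to ES (edgeR adjusted p = 5.11e-05). It shares 81 bases with Zcchc17 on the opposite strand, which a stranded library can separate only where counting used strand, and the sources used here do not say whether it did.

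Ptgds encodes the lipocalin-type prostaglandin D synthase. It is made by Leydig cells and, unlike the steroid enzymes, also by Sertoli cells and by the epididymis. It had 689, 494 and 643 counts in PAC, 14, 17 and 13 in RS and 249, 304 and 212 in ES. All 3 ES libraries held far more of it than of any other of the 10 genes. The fall to RS was within the range of the others, 48.9-fold (log2 fold change -5.61 ± 0.23 SE, edgeR adjusted p = 1.51e-08), but the rise to ES was 28.9-fold (4.85 ± 0.23, edgeR adjusted p = 4.58e-07). ES was thus at 12.3 ± 1.99 CPM, 59.0% of the PAC level of 20.9 ± 2.6, a fall of only 1.7-fold from PAC to ES (-0.76 ± 0.18, edgeR adjusted p = 0.00247).

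From PAC to ES the other 9 genes also fell, 8 of them by log2 values from -2.4 (Star) to -4.19 (Hsd17b3) with edgeR adjusted p from 6.92e-07 to 2.59e-05. Star was 5.3-fold lower, Hsd3b1 8.4-fold, Fabp3 8.6-fold, Cyp11a1 and Hsd3b6 both 10.2-fold, Cyp17a1 13.7-fold, Insl3 14.0-fold and Hsd17b3 18.2-fold lower. Lhcgr, on 4 counts in ES, was at 4.68% of PAC when pooled (exact 95% interval 1.25% to 12.3%, edgeR adjusted p = 0.000195). Without Ptgds, the summed ES level was 12.1%, 9.66% and 8.8% of the PAC mean in replicates 1, 2 and 3. The exact 95% interval pooled over libraries was 9.33% to 10.8%, which covers counting error only and not the spread between libraries.

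**Figure D3:**
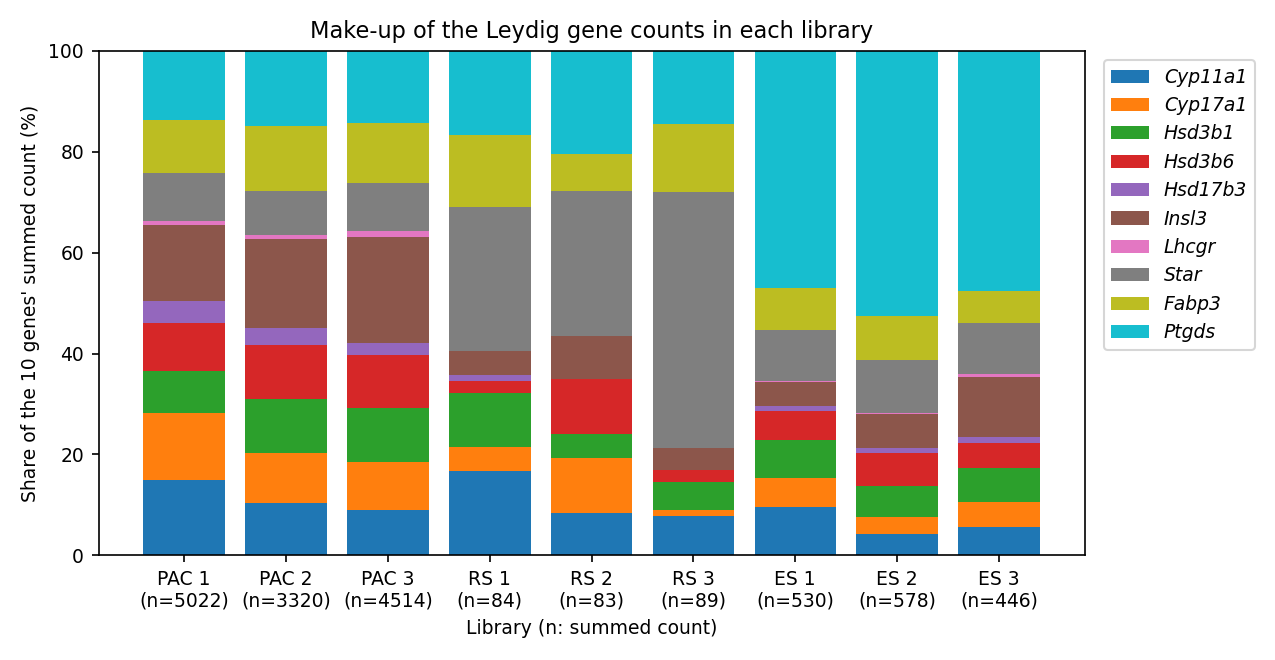
Share of each gene in the summed counts of the 10 genes (percent), one bar per library with its summed count. Ptgds takes 47.0% to 52.6% of the ES bars and Star 28.6% to 50.6% of the RS bars, against 13.7% to 14.9% and 8.64% to 9.58% in PAC.

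The mixture of the 10 genes therefore differed between cell types, as the plot of shares shows. Of their pooled counts, Ptgds made up 14.2% in PAC, 17.2% in RS and 49.2% in ES (Wilson 95% intervals 13.6% to 14.8%, 13.1% to 22.3% and 46.7% to 51.7%). Star made up 9.33% in PAC, 36.3% in RS and 10.3% in ES (8.84% to 9.85%, 30.7% to 42.4% and 8.88% to 11.9%). Both genes were singled out after their values were seen, and the shares are a description with no test. The intervals cover counting error only and not the spread between libraries. RS replicate 3 had the largest Star share, 50.6%, and replicates 1 and 2 had 28.6% and 28.9%. The summed RS level without Star was 1.36%, 1.22% and 0.962% of the corresponding PAC mean.

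Among the other genes the make-up also varied between libraries of the same cell type. There were 1.0, 0.588 and 0.428 counts of Cyp11a1 for each count of Insl3 in PAC replicates 1, 2 and 3. In ES these were 2.05, 0.62 and 0.472, and in RS, on few counts, 3.64, 0.971 and 1.83. The ratio was thus highest in replicate 1 of each cell type, although the replicate numbers are not stated to link libraries across cell types. Counts of Cyp17a1 for each of Cyp11a1 varied less in PAC and ES, at 0.875, 0.962 and 1.07 in PAC and 0.588, 0.833 and 0.88 in ES. In RS, on 1 to 9 counts of Cyp17a1 a library, they varied more, at 0.286, 1.29 and 0.143.

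Per length, which allows genes to be compared, the deposited FPKM values placed Insl3 first in PAC at 46.9 ± 11.9 FPKM, clear of Fabp3 at 28.0 ± 2.99. Fabp3 and Ptgds (26.2 ± 2.92 FPKM) overlapped between libraries. So did Cyp11a1 (9.91 ± 3.15), Cyp17a1 (9.11 ± 2.17), Hsd3b6 (8.71 ± 1.09) and Hsd3b1 (8.28 ± 1.48), the enzymes of the central pathway, and below them Hsd17b3 (4.18 ± 1.29) and Star (3.57 ± 0.652). Lhcgr was last, at 0.791 ± 0.253 FPKM, with no overlap. In ES the order began with Ptgds at 12.8 ± 1.88 FPKM, apart from Insl3 at 2.8 ± 1.1 and Fabp3 at 2.67 ± 0.632, which overlapped. Hsd3b1, Cyp11a1, Hsd3b6, Star and Cyp17a1 followed at means of 0.546 to 0.799 FPKM, each overlapping the next, then Hsd17b3 at 0.185 ± 0.0227 and Lhcgr at 0.042 ± 0.0121. In RS the 8 highest ran from Ptgds at 0.541 ± 0.0406 FPKM down to Hsd3b6 at 0.0733 ± 0.0647, and each of them overlapped the next in that order.

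Promoter windows from 250 bases before to 50 after the start were matched in RefSeq (GRCm38.p6) for 8 of the 10 genes. These were 9 windows in all, of which Cyp11a1 had 2. Those of Star and Cyp17a1 were not used here. NR5A1, also called SF-1, is the nuclear receptor that drives steroid genes in Leydig and adrenal cells. Its motif written as CAAGGNCA, on either strand, was in none of the 9 windows, and in 6.71% of all 32851 windows. A shorter form, CAAGGNC, tried after the longer one gave no match, was in those of Insl3 and Ptgds, 2 of the 9 windows, and in 17.8% of all windows. Every match of the longer form is also one of the shorter. The Insl3 window is shown because Insl3 was the highest of the 10 genes in PAC per length and its window holds the shorter motif in capitals, 137 and 57 bases before the start (chr8:71689002-71689301, plus strand, GRCm38.p6, RefSeq):
Insl3: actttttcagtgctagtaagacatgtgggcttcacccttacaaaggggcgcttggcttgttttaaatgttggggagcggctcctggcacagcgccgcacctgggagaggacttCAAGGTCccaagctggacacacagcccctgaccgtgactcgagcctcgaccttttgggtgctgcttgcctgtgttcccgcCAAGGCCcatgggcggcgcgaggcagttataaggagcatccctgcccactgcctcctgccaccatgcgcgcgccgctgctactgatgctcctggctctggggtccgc
In Ptgds the matches lay 232 bases before the start on the strand of the gene and 64 bases before it on the other strand. These are matches of letters only.

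Of 10 other genes known from Leydig cells, 8 fell and 1 rose from PAC to RS, beside 34.2% and 38.2% of all features. From RS to ES 5 rose, beside 24.5%. From PAC to ES 6 fell and 2 rose, beside 33.7% and 30.6%, and 6362 of the 14955 NCBI genes tested were called lower there. The median log2 fold changes of these 10 other genes were -3.81, 1.61 and -2.7. The summed level, 86.6 to 106 CPM in PAC, 22.1 to 26.0 in RS and 66.8 to 90.2 in ES, stands beside 147, 2.46 and 25.1 CPM for the 10 steroidogenic genes. In RS most of the sum of these other genes was Cyp1b1. In PAC and ES the largest part was Aldh1a1, at 50.2 of a mean sum of 98.6 CPM and 49.0 of 81.7 CPM. Prlr, Klk1b24, Sult1e1, Klk1b27 and Klk1b21, all less abundant, were called lower in RS and in ES than in PAC. Hsd11b1 was not called in either comparison. The 4 most abundant of the other genes differed among themselves. Vcam1, a cell adhesion molecule, was at 24.9 ± 4.59 CPM in PAC, 1.23 ± 0.133 in RS and 2.11 ± 0.598 in ES. Its rise from RS to ES was small (log2 fold change 0.78 ± 0.25 SE, edgeR adjusted p = 0.0224) and was not called with total counts alone (adjusted p = 0.184). Aldh1a1, a retinaldehyde dehydrogenase, was at 49.0 ± 12.3 CPM in ES and 50.2 ± 9.4 in PAC (log2 difference -0.03 ± 0.21 SE, edgeR adjusted p = 0.902), and at 4.58 ± 0.827 in RS. Nr5a1, the gene of the regulator named above, was higher in ES (10.4 ± 0.307 CPM) than in PAC (3.76 ± 0.849; edgeR adjusted p = 0.000197) and stood at 0.366 ± 0.125 in RS; it is also expressed in Sertoli cells. Cyp1b1, a P450 of oestrogen and xenobiotic metabolism, was the one that rose from PAC to RS, from 5.0 ± 0.822 to 16 ± 1.34 CPM.

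The general machinery around the steroid enzymes had smaller medians. Many of the features in the table are noncoding or assembled transcripts, and over the 14955 tested features that are NCBI genes the median from PAC to RS was -0.46, with 6996 called lower and 3955 higher. Of 6 electron carriers that serve P450 enzymes, 4 fell from PAC to RS and none rose (median log2 fold change -1.8). From RS to ES 4 of them rose and 2 fell, beside 24.5% and 22.1% of all features. Fdx1, the ferredoxin that passes electrons to CYP11A1, was at 30.6 ± 3.87 CPM in PAC and 27.6 ± 1.13 in RS (log2 difference -0.15 ± 0.20 SE, edgeR adjusted p = 0.506). Its reductase Fdxr went from 12.8 ± 1.39 to 3.46 ± 0.429 CPM (edgeR adjusted p = 4.27e-06), Cyb5a, the cytochrome that aids the lyase step of CYP17A1, from 16.8 ± 2.93 to 3.44 ± 0.673, and the related Cyb5b from 95.6 ± 8.65 to 15.7 ± 1.62.

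Of 11 genes of cholesterol uptake, storage and transport, 6 fell and 2 rose from PAC to RS (median -0.75), and of 19 genes of cholesterol synthesis 9 fell and 5 rose (median -0.29). With upper-quartile factors 4 fell and 4 rose of the first list and 7 and 7 of the second (median 0.01), so no direction holds for the synthesis list. The most abundant of the first list, Lipe, was at 22.5 ± 3.88 CPM in PAC, 32.7 ± 3.51 in RS and 190 ± 92.2 in ES. Its rise from PAC to ES was 3.08 ± 0.32 SE on the log2 scale (edgeR adjusted p = 1.5e-05). Gramd1b was at 104 ± 44.6 CPM in PAC, 61.8 ± 1.77 in RS and 58.0 ± 21.9 in ES. From PAC to RS, Scarb1, the receptor for high-density lipoprotein, rose from 32.1 ± 2.03 to 50 ± 1.53 CPM. Npc2, which moves cholesterol out of lysosomes, fell from 37.8 ± 7.33 to 20.9 ± 1.37. Among the synthesis genes Fdft1, the squalene synthase, was the most abundant and rose from 450 ± 7.67 to 713 ± 6.98 CPM (edgeR adjusted p = 0.000213). From PAC to ES the medians of these lists were -0.55 and -0.1, the latter 0.21 with upper-quartile factors.

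Among other steroid-converting enzymes 10 of 11 were in the table and 3 could be tested. Cyp19a1, the aromatase that makes oestrogen from androgen, was in a different range from the Leydig enzymes, at 1220 ± 98.2 CPM in PAC, 17.6 ± 2.39 in RS and 71.4 ± 7.01 in ES. The androgen-reducing Srd5a1 was at 8.48 ± 1.16 CPM in PAC and 7.63 ± 0.135 in RS (edgeR adjusted p = 0.488). Of the 5 other Hsd3b genes only Hsd3b7, an enzyme of bile acid synthesis, had enough counts, and it fell from 1.04 ± 0.364 CPM in PAC to 0.189 ± 0.0923 in RS; the remaining 4 had between 0 and 4.99 counts over the 3 libraries of any cell type. Of the other Hsd17b genes 8 of 9 were in the table and 6 were tested. From PAC to RS 5 of the 6 fell, beside 34.2% of all features called lower. The most abundant, Hsd17b4 of peroxisomal fatty acid breakdown, went from 75.9 ± 17.0 to 35.1 ± 1.72 CPM, a log2 fold change of -1.11 ± 0.17 SE (edgeR adjusted p = 0.000108).

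Of 15 genes of luteinising hormone signalling and steroidogenic transcription, 13 were tested, and 5 fell and 3 rose from PAC to RS. Their median of -0.45 was close to that of all NCBI genes, and their share called lower was near the 34.2% of all features. Gnas, the stimulatory G protein that the receptor acts through, fell from 42.6 ± 2.67 to 9.68 ± 1.62 CPM and was at 46.5 ± 7.18 in ES. Prkar1a, a regulatory subunit of protein kinase A, was at 134 ± 11.9 CPM in PAC and 139 ± 3.98 in RS (edgeR adjusted p = 0.745, or 0.0258 with upper-quartile factors). Of 14 other fatty acid binding protein and prostaglandin synthase genes 6 were tested. Fabp9, the testis form, reached 1790 ± 322 CPM in PAC, 2578 ± 103 in RS and 3137 ± 1077 in ES, so that Fabp3 was not the main gene of its family in these libraries. Fabp12 rose from 17.9 ± 1.94 CPM in PAC to 71.7 ± 5.36 in RS (edgeR adjusted p = 1.1e-05).

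**Figure D4:**
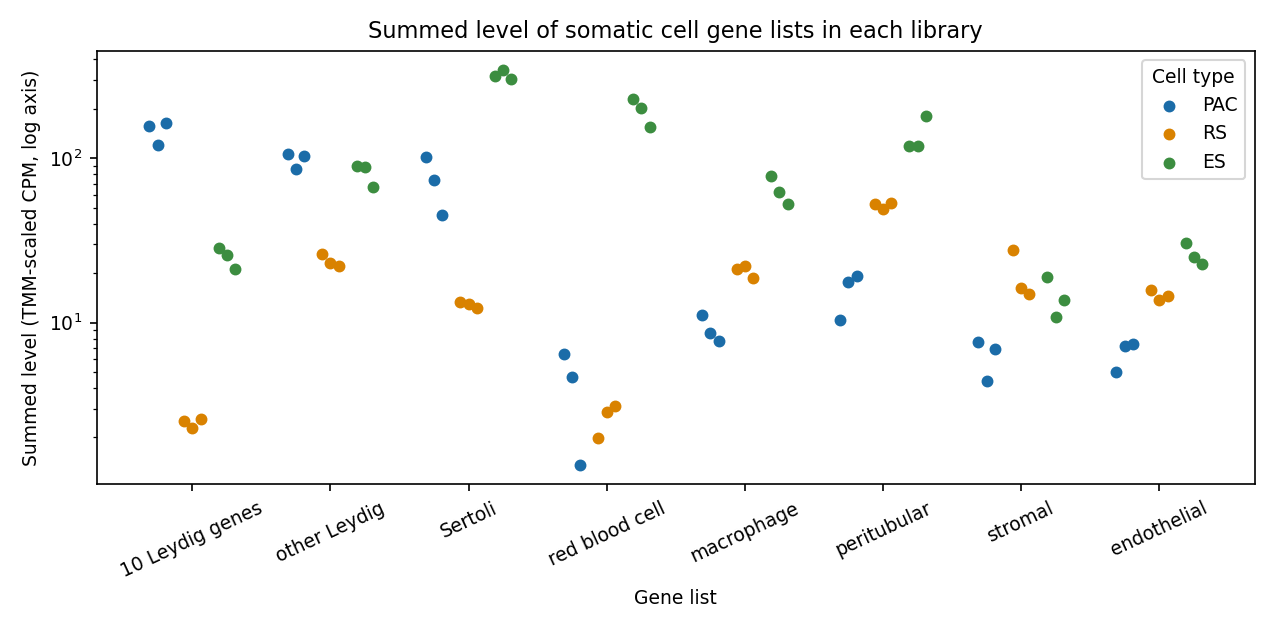
Summed level of the 10 Leydig genes and of other somatic gene lists in each library (TMM-scaled CPM, log axis), by cell type. The 10 Leydig genes are highest in PAC, whereas the Sertoli, red blood cell, macrophage, peritubular and endothelial lists are highest in ES.

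Markers of other somatic cells moved with the cell types too. Over all features, 34.2% were called lower from PAC to RS, 24.5% higher from RS to ES and 30.6% higher from PAC to ES. Sertoli genes moved as the Leydig genes did from PAC to RS and from RS to ES, and the opposite way from PAC to ES. Of 17 Sertoli cell genes 15 were tested; 14 of them fell from PAC to RS (median log2 fold change -2.49), all 15 rose from RS to ES (median 5.12), and all 15 were higher in ES than in PAC (median 2.6). Their summed level was 45.2 to 102 CPM in PAC, 12.2 to 13.4 in RS and 305 to 342 in ES, so the Sertoli sum was highest in ES and the Leydig sum in PAC. The most abundant, Clu, was at 27.1 ± 6.16 CPM in PAC, 2.15 ± 0.127 in RS and 100 ± 13.5 in ES. Inha, the alpha subunit of inhibin, was at 4.78 ± 1.92 CPM in PAC, 2.01 ± 0.0889 in RS and 20.2 ± 1.21 in ES. The defining markers Amh and Fshr had too few counts to be tested: Amh had 23 in PAC, 0 in RS and 6 in ES, and Fshr had 2, 0 and 2. Amh was thus higher in PAC (0.266 ± 0.0857 CPM) than in ES (0.094 ± 0.0396), unlike the tested Sertoli genes. Within PAC the Sertoli sum was 102, 73.6 and 45.2 CPM in replicates 1, 2 and 3 while the sum of the 10 Leydig genes was 156, 121 and 163, so these lists did not order the libraries alike.

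Red blood cell genes, 5 tested, were all higher in ES than in RS and in PAC, with sums of 1.37 to 6.41 CPM in PAC, 1.99 to 3.12 in RS and 154 to 229 in ES. Macrophage genes, which mark cells of the same interstitial space as Leydig cells, had 6 of 7 tested genes higher and 1 lower in RS than in PAC. Their sum was 7.78 to 11.2 CPM in PAC, 18.7 to 22 in RS and 52.9 to 77.8 in ES, an order unlike that of the Leydig genes. Peritubular (10.4 to 19.2, 48.8 to 53.4 and 118 to 181 CPM in PAC, RS and ES), endothelial (5.01 to 7.42, 13.8 to 15.8 and 22.7 to 30.4) and stromal genes (4.39 to 7.59, 14.9 to 27.8 and 10.8 to 19.0) were likewise lowest in PAC as sums. These sums hide different genes. Actg2, a smooth muscle actin, made up most of the peritubular sum, at 13.4 ± 5.03 CPM in PAC, 47.1 ± 1.83 in RS and 131 ± 34.1 in ES, whereas Acta2 and Tagln, also of smooth muscle, were not called between PAC and ES (edgeR adjusted p = 0.289 and 0.582). Of 6 peritubular genes tested, 3 were higher in RS than in PAC and 3 in ES than in PAC, and none was lower in either. Of 5 endothelial genes 3 were higher and 1 lower in RS than in PAC, and 2 and 1 in ES than in PAC. The lower one was Pecam1, an adhesion molecule of endothelium, which was highest in PAC, at 1.15 ± 0.291 CPM against 0.27 ± 0.0533 in RS and 0.519 ± 0.155 in ES; its call from PAC to ES was lost with upper-quartile factors (adjusted p = 0.0979). Of 6 stromal genes 4 were higher and none lower in RS than in PAC, and 3 were higher and 1 lower in ES than in PAC. Over all features 38.2% were called higher and 34.2% lower in RS than in PAC, and 30.6% and 33.7% in ES than in PAC. Calls in the short peritubular, endothelial and stromal lists therefore say little about those lists. Tagln and Pecam1 were singled out after their values were seen. Among the defining markers of these lists, Col1a1 of stroma had 0 counts in PAC and Emcn of endothelium 0 in RS. Of the 10 Leydig genes only Lhcgr had no counts in a whole cell type. The part of any somatic cell in the levels of the 10 genes was not tested.

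**Figure D5:**
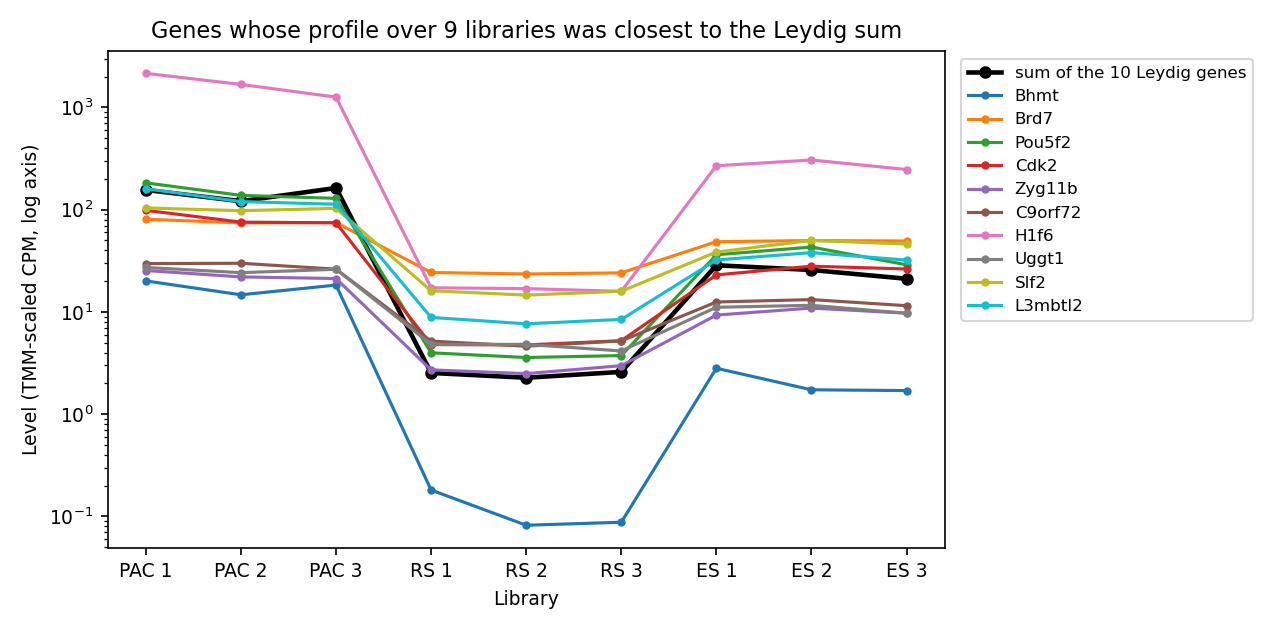
Level of the summed 10 Leydig genes (black) and of the 10 other genes closest to it over the 9 libraries (TMM-scaled CPM, log axis); lines join libraries only to guide the eye. All lines are highest in PAC and lowest in RS; the summed genes keep 1.68% of their PAC level in RS, between H1f6 at 0.983% and Pou5f2 at 2.51%.

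The order of PAC above ES above RS was shared by many other genes. Over the 9 libraries, 806 of 12839 other genes with a mean of at least 1 CPM had a Pearson r of 0.95 or more between their log2 level and that of the summed 10 genes. The libraries fall into 3 cell types, so r mostly reflects the order of these and is given as a description. The closest 10, with r from 0.9933 to 0.9959, were Bhmt, Brd7, Pou5f2, Cdk2, Zyg11b, C9orf72, H1f6, Uggt1, Slf2 and L3mbtl2. They include genes known from meiotic germ cells. H1f6, the testis linker histone of spermatocytes, went from 1699 ± 447 CPM in PAC to 16.7 ± 0.69 in RS (0.983%) and 274 ± 29.9 in ES (16.1%), beside 1.68% and 17.1% for the summed Leydig genes. Bhmt, which remethylates homocysteine, was at 0.66% of its PAC level in RS and 11.8% in ES, and Pou5f2, a testis transcription factor, at 2.51% and 24.0%. Cdk2, the cyclin-dependent kinase needed in meiotic prophase, kept 5.95% and 31.1%, and Brd7, a bromodomain protein of chromatin, 31.2% and 64.4%.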

How the data were processed

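Per the labels, total RNA was depleted of ribosomal RNA and made into stranded libraries; HISAT2 and StringTie are among the tools, and GRCm38.p6 is the build, per the submitters' processing notes, which state no versions. The deposited table of estimated counts per feature was not normalised; 18.85% of its values were not whole (tolerance 0.001), so they were rounded for testing. The authors also deposited FPKM values, with lengths and totals that the sources used here do not state; they were used to compare genes per length. No column was left unmapped. The members, the gene lists and the tests were chosen with earlier results of these data known.

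Features were kept by filterByExpr with a minimum count of 10 (26030 kept, 24463 removed) and scaled by TMM. One edgeR quasi-likelihood fit over all 9 libraries gave each comparison (two-sided, robust), adjusted by Benjamini-Hochberg over all features. Log2 fold changes are from that fit. The fit was also run on simulated data in which far fewer features changed, so that run could not check the scaling of these libraries. Alternatives were other scalings, filters of none and of 50 counts, DESeq2, limma on log2(FPKM + 0.1) and log2(FPKM + 1), the compared groups alone, a replicate block and leaving out each library. A floor of 3 counts per library stood for 0; intervals are 95% and, as reads can be copies of 1 molecule, cover only counting error. All 10 members are named; from each other list at most 4 genes are named with levels, those of highest mean CPM, apart from defining markers with 0 counts, Hsd3b7, Tagln and Pecam1, named after their values were seen. Likeness used log2(CPM + 0.1). Sequences came from RefSeq tables and GENCODE M21 transcripts. Tests ran in edgeR 4.0.16, DESeq2 1.42.0 and limma 3.58.1 under R 4.3.3, and tables and plots in pandas 2.3.3, scipy 1.17.1 and matplotlib 3.10.9 under Python 3.11.15.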

Additional observations from a re-analysis of the deposited data

How the results depend on the processing

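Over 20 alternatives per comparison, no call of the 10 genes changed direction. All 199 values from PAC to RS and all 199 from PAC to ES stayed called, and 190 of 197 from RS to ES; the 7 lost were Lhcgr under 5 alternatives (adjusted p from 0.0506 to 0.597) and, with log2(FPKM + 1), Hsd17b3 (adjusted p = 0.254) and Star (adjusted p = 0.0826). With RS and ES fitted alone, Lhcgr and Hsd17b3 did not pass the filter and 8 genes were called higher. A pseudocount on FPKM shrinks the differences of low genes by construction. The fall of Ptgds from PAC to ES ran from -1.05 to -0.45. The summed level in RS was 2.65 CPM with upper-quartile factors and 2.69 with total counts alone. Size in ES also depended on the scaling. From PAC to ES, the median log2 fold change of the 10 genes was -3.35 with TMM. It was -3.66 with total counts alone, -3.26 with DESeq2 size factors and -3.04 with upper-quartile factors. Without Ptgds and Fabp3 the sums were 109 CPM in PAC, 1.75 in RS and 10.8 in ES, and without Hsd3b1 and Hsd3b6 they were 117 in PAC and 2.17 in RS, fewer genes being summed. Upper-quartile factors moved the median of all features by 0.31 from PAC to RS and 0.3 from PAC to ES, and total counts alone moved it by -0.33 from RS to ES and -0.28 from PAC to ES. From RS to ES this turned the split of all calls from 5752 lower and 6374 higher to 8191 and 4292, and to 8674 and 4114 with log2(FPKM + 0.1); from PAC to ES upper-quartile factors turned 8778 and 7976 into 6931 and 9528. Deviations of libraries with the same replicate number correlated at -0.0397 to 0.106 for RS against PAC and ES against RS. For ES against PAC they correlated at 0.185, -0.0245 and 0.273 in replicates 1, 2 and 3. The replicate numbers are not stated to link libraries, and they were not taken as pairs in any comparison. For ES against PAC the correlations do not settle whether libraries were linked. With a replicate block all calls of the 10 genes held, and the features called numbered 19067, 12375 and 17006 in place of 18863, 12126 and 16754 for RS against PAC, ES against RS and ES against PAC. Of 6 libraries per comparison 2, 2 and 4 correlated best with their own number. The RS values of the 10 genes rest on 256 counts in all, although the RS libraries, at 30238191 to 33801617 counts, were among the deepest.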
